A study of Mus musculus with 2 samples.

Results

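The AP-1 family genes Jun, Junb, Jund, Fos, Fosb, Fosl1, Fosl2 and Atf3 were examined, 8 of the 22380 annotated protein-coding genes, in an ATAC-seq experiment on mouse intestinal enteroids. They were chosen by name, and the open regions assigned to them were the peaks within 1 kb of any annotated start site of the gene (promoter) and all other peaks overlapping the gene body or the 50 kb on either side (distal). ATAC-seq reads out open chromatin through a transposase that cuts accessible DNA and tags it for sequencing, here in 20000 cells per library. The enteroids, epithelial cultures kept in Matrigel, were grown from crypts of the ileum of mice aged 4 months and of strain C57Bl6/129sv. Control enteroids were Taf4 lox/lox (WT in the labels). Taf4-inactivated enteroids were Taf4 lox/lox::VilCreERT2, in which the Villin promoter drives, in epithelial cells, a Cre recombinase that becomes active with 4-hydroxytamoxifen (4-OHT). Both were given 1 µM 4-OHT for 3 days, so the loxP sites and the drug were common to both genotypes and the Cre transgene was not. Each genotype had 1 library without a replicate, no test was possible, and every difference below describes these 2 libraries.

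AP-1 is a family of dimeric leucine zipper transcription factors. Jun proteins pair with each other or with Fos and Atf proteins, whereas Fos proteins need a Jun partner, and the dimers bind the palindrome-like sequence TGACTCA. Growth factors, stress and inflammation activate some of the genes within minutes. They act through kinase cascades, serum response factor (SRF, which binds CArG boxes) and factors on cyclic AMP response elements (CRE, TGACGTCA). In the intestine AP-1 is known for its part in crypt proliferation, injury repair and tumour growth.

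The control list held 90445 peaks and the Taf4-inactivated list 71282. The authors' fold enrichment of a peak, its signal over the background of the same library, has no scale in common with the other library, and therefore each peak is given below by its percentile of fold among all peaks of its list, and differences are Taf4-inactivated minus control in percentile points. Where 2 percentiles are given together, control comes first. Read depth was not used here, and its part in the differences between the lists was not tested. In a bulk library, fewer cells with an open site and less opening per cell cannot be told apart. At the targeted gene, Taf4a, the start site was open in both lists (percentiles 74.7 and 58.7), which gives no information on the deleted exons. Of 16 markers of intestinal epithelium, 14 had a promoter peak in control and 16 after inactivation (Fabp2, a fatty acid binding protein of enterocytes, and Krt20, a keratin of mature cells, in the second list only). The 14 shared ones had a median difference of −11.9 points, against −2.77 for all coding genes, and differed in direction. Lower were Krt18 at −32.3, Alpi at −19.3, Vil1 at −18.9, Epcam at −18.8, Lgr5 at −16.9, Muc2 at −15.6, Chga at −14.8 and Cdx1 at −9.07. The others were Hnf4a at 0.798, Krt8 at 1.01, Cdh1 at 1.22, Cdx2 at 2.84, Olfm4 at 3.64 and Lyz1 at 36.1. By −log10 p the differences of Vil1 and Cdx2 had the other sign, at 1.27 and −4.60. Of 8 endothelial, stromal, muscle and glial markers, 6 had a promoter peak in control and 4 after inactivation, and Cdh5 and Acta2 had none in either list. The 4 stromal, muscle and glial markers with a peak in both lists had a median difference of −18.3 points, and among them only Col1a1 was higher, at 7.36. Of the immune markers, Itgam had a promoter peak in both lists, with a difference of −29.9 points, and Ptprc and Cd3e had none. The part of other cell types in the values below was not tested. Coordinates are on mm9.

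All members but Fosb had a promoter peak in control, 7 of 8, and all 8 had one in Taf4-inactivated enteroids. Among all protein-coding genes the shares were 68.4% and 65.5%. The sequences below are those around known types of regulatory site found inside these promoter peaks, since they show what kind of DNA was open. Each is printed in the direction of its gene, with the match in capitals and 30 bases on each side. Matches were sought on both strands for TGACTCA (AP-1), TGACGTCA (CRE), TGACATCA (the variant known from the Jun promoter) and the CArG box, none of which overlap each other here.
Jun, chr4:94718921-94718988, minus strand, TGACATCA 45 bp upstream of the 5′ end: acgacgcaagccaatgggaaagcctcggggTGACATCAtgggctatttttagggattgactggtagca
Junb, chr8:87504028-87504097, minus strand, CArG box 1450 bp upstream: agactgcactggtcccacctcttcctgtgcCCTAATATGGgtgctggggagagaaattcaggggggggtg
Fos, chr12:86814501-86814570, plus strand, CArG box 309 bp upstream: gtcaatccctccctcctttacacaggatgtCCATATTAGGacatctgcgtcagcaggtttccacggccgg
Fosb, chr7:19895627-19895696, minus strand, CArG box 272 bp upstream: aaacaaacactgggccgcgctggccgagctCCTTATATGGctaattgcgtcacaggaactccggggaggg
Fosl2, chr5:32438197-32438263, plus strand, AP-1 sequence 618 bp upstream: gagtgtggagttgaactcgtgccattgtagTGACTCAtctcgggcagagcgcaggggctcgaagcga
Atf3, chr1:193006634-193006700, minus strand, AP-1 sequence in an intron, 549 bp inside the gene: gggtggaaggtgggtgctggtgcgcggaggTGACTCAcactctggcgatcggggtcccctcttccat
The matches of Jun, Fos, Fosl2 and Atf3 lay in the promoter peak of both lists. That of Fosb lay in its only promoter peak, in the Taf4-inactivated list, and that of Junb lay in the promoter peak of control alone. In the Taf4-inactivated list the Junb match lay in a separate peak, chr8:87503674-87504400, which counted as distal. The Jun window also lay within an intron of the annotated gene BC042782. The promoter peaks of Jund held a CRE 996 bp inside the gene in both lists, and those of Fosl1 held AP-1 sequences. The Fos promoter peak of the Taf4-inactivated list, which reached further upstream, also held the TGACATCA sequence on the other strand, at −1724 bp. In control that sequence lay in a separate peak, chr12:86813077-86813546, which counted as distal. A CArG box was in the strongest promoter peak of 3.49% of all coding genes with one in control and 3.23% in Taf4-inactivated enteroids, an AP-1 sequence in 11.8% and 11.6%, a CRE in 4.37% and 4.45%, and TGACATCA in 3.13% and 2.84%. The members' peaks were wider than those of coding genes in general, at the medians given below, and the part of width in these counts was not tested. In the 300 bp directly upstream of each gene, where windows are of equal length, none of the 8 held the AP-1 sequence, against 4.50% of coding genes. TGACATCA was found there only in Jun and a CArG box only in Fosb, against 2.99% and 1.62% of coding genes. The Fos CArG box, which began 309 bp upstream, crossed the edge of this window and was not counted.

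**Figure D1:**
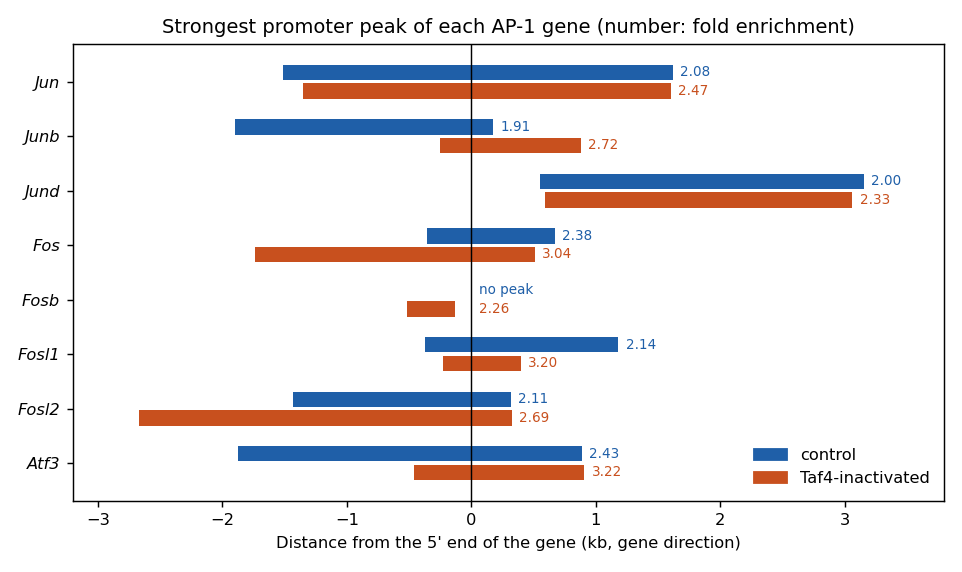
Extent of the strongest promoter peak of each AP-1 gene, in kb from the 5′ end of the gene in the direction of transcription, in control (blue) and Taf4-inactivated enteroids (orange), with the authors' fold enrichment at the right of each bar. The Junb peak lies mostly upstream of the 5′ end in control and mostly inside the gene after inactivation, and Fosb has a bar in the Taf4-inactivated list alone.

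Jun, the founding member of the family and the usual partner of Fos proteins (ENSMUSG00000052684.3, chr4:94715725-94718913, minus strand), had a promoter peak with a width of 3131 bp in control and of 2953 bp after inactivation. It spanned the 5′ end. Its fold was 2.08, at percentile 58.3, in control and 2.47, at percentile 51.9, after inactivation, a difference of −6.34 points. Junb, a Jun protein that often opposes Jun in proliferation (ENSMUSG00000052837.4, chr8:87500811-87502617, minus strand), had the largest difference of the family. Its peak ran over chr8:87502442-87504516 in control, almost wholly upstream of the gene, with a fold of 1.91 at percentile 24.1. In Taf4-inactivated enteroids it ran over chr8:87501740-87502866, mostly within the gene, with a fold of 2.72 at percentile 66.3. Junb thus stood 42.2 points higher after inactivation, but the peaks shared only 425 bp. The upstream DNA of the control peak was still called in the Taf4-inactivated list, as a separate weak peak over chr8:87503674-87504400 at percentile 10.4, and 1057 bp from the nearest start site it counted as distal. By −log10 p, Junb was at percentile 80.9 in control and 90.4 after inactivation, a difference of 9.53 points. Jund, a Jun protein expressed in most cells at rest (ENSMUSG00000071076.4, chr8:73221638-73224515, plus strand), was at percentile 43.9 in control and 39.3 after inactivation, and its peaks started 552 and 588 bp inside the annotated gene.

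Fos, the prototype immediate early gene (ENSMUSG00000021250.7, chr12:86814840-86818223, plus strand), stood at percentile 84.2 in control, with a fold of 2.38, and 77.3 after inactivation, with a fold of 3.04. The difference was −6.91 points. Its peak had a width of 1033 bp in control and of 2248 bp after inactivation, where it began at −1737 bp, over DNA that control had as a separate peak. Fosb, a Fos protein known for lasting induction in neurons (ENSMUSG00000003545.2, chr7:19888070-19895394, minus strand), had no promoter peak in control and a narrow one of 383 bp in Taf4-inactivated enteroids, chr7:19895525-19895907, with a fold of 2.26 at percentile 31.2. The nearest control peak, at percentile 28.0, lay 1151 bp from a start site, just outside the limit of 1 kb, and with a limit of 2 kb Fosb had a promoter peak in both lists. Fosl1, or Fra-1, a Fos protein without the transactivation domain of Fos (ENSMUSG00000024912.5, chr19:5447703-5455945, plus strand), was at percentile 66.6 in control and 81.4 after inactivation, 14.7 points higher, with a peak width of 1549 bp in control and 626 bp after inactivation. By −log10 p the difference of Fosl1 was 0.224 points. Fosl2, or Fra-2, its closest relative (ENSMUSG00000029135.9, chr5:32438845-32460204, plus strand), was at percentiles 61.8 and 65.0, a difference of 3.18 points by fold and −1.15 by −log10 p. Atf3, a stress-induced partner of Jun proteins that can repress transcription (ENSMUSG00000026628.8, chr1:192994175-193007219, minus strand), was among the stronger of the family in both lists, at percentiles 86.1 and 81.7, with folds of 2.43 and 3.22.

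**Figure D2:**
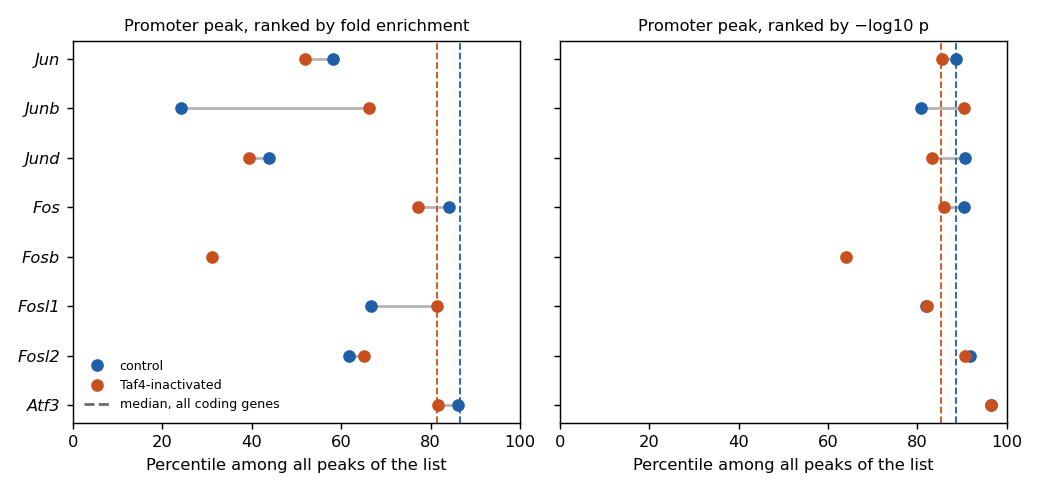
Percentile of the strongest promoter peak of each AP-1 gene among all peaks of its list, ranked by fold enrichment (left) and by −log10 p (right), in control (blue) and Taf4-inactivated enteroids (orange); dashed lines are the medians of all coding genes with a promoter peak. By fold all 8 genes lie left of or close to the medians and Junb is furthest apart, and by −log10 p most lie near the medians.

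Of the 7 genes with a promoter peak in both lists, 1 (Junb) stood at least 20 points higher after inactivation and 0 stood at least 20 points higher in control. Of 14022 coding promoters with a peak in both lists, 7.84% and 12.3% did so. The median difference of the 7 was −4.33 points, and that of all coding genes −2.77, with quartiles at −10.6 and 2.35. Jun, Jund, Fos and Atf3 lay between these quartiles, and Junb, Fosl1 and Fosl2 above the upper one. By median the AP-1 promoters were broad and of moderate average fold in both lists. Their median width was 2075 bp in control and 1807 bp after inactivation, against 1049 and 980 bp for all coding genes. Their median percentile by fold was 61.8 and 65.6 against 86.5 and 81.5. By −log10 p their medians, 90.4 and 85.8, were near those of all coding genes, 88.7 and 85.4. Single members departed from this. Fos in control (1033 bp) and Fosb (383 bp) and Fosl1 (626 bp) after inactivation were narrower than the coding medians. By fold, Atf3 in both lists (86.1 and 81.7) and Fosl1 after inactivation (81.4) were close to the coding medians. The authors' fold and p are averages over a peak, and the part of width in these ranks was not tested.

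The windows of the 8 genes held 108 distal peaks in the control list and 87 in the other. The median per gene was 15 and 11.5, against 8 and 6 for all coding genes. Merged where they overlapped, the peaks made 130 distal regions. Of these, 65 (50%, 95% interval 41.1 to 58.9) were in both lists, 42 (32.3%, 24.4 to 41.1) in control only and 23 (17.7%, 11.6 to 25.4) in Taf4-inactivated enteroids only. The intervals are exact (Clopper-Pearson), cover counting error only, and treat regions of 1 window as separate. Of 96684 regions distal to any coding gene, 36.5% were in both lists, 39.7% in control only and 23.8% in Taf4-inactivated enteroids only. At start sites of other genes, 24 of 33 regions (72.7%, 54.5 to 86.7) were in both lists, near the 71.1% of the 17441 such regions over all coding genes. The remaining 97 regions had 42.3% in both lists (32.3 to 52.7), against 28.9% over all coding genes, 36.1% in control only, against 44.2%, and 21.6% in Taf4-inactivated enteroids only, against 26.9%. By median, regions in 1 list were weaker than regions in both lists, the control-only ones most clearly. The control-only regions had a median percentile of 14.7 (0.136 to 73.0) and the Taf4-inactivated-only regions 39.9 (1.16 to 76.9), whereas regions in both lists had medians of 56.8 and 66.8. The 40000 peaks of highest fold were also taken from each list. The excess of control-only regions was then not seen, with 5 in control only and 25 in Taf4-inactivated enteroids only. The shares over all coding genes under this cut were not determined, so these counts describe the members' windows only.

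**Figure D3:**
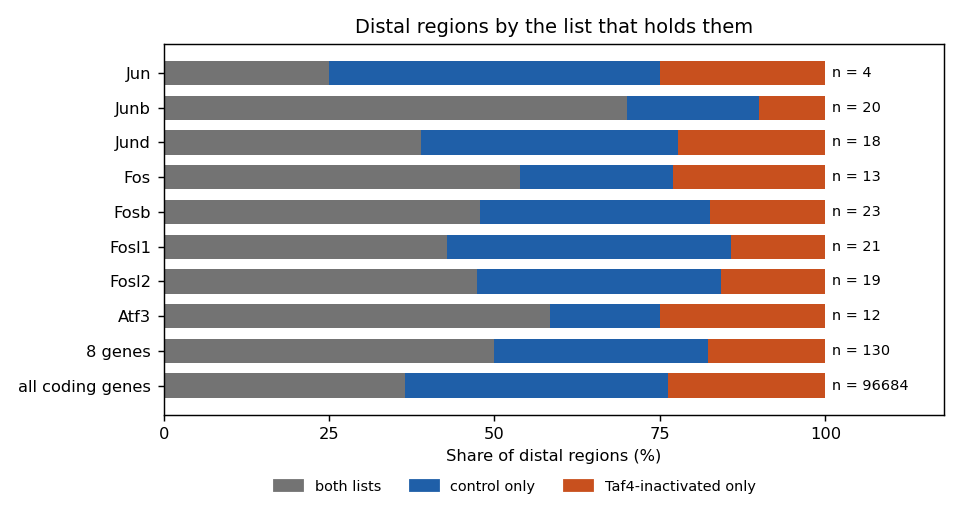
Share of the distal regions of each AP-1 gene, of the 8 genes and of all coding genes that were in both lists (grey), in control only (blue) or in Taf4-inactivated enteroids only (orange), in percent, with the number of regions at the right. Junb has the largest shared part, 14 of 20 regions, and the 8 genes have 50% against 36.5% for all coding genes.

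The windows differed widely in how many regions they held. Jun had the fewest, 4 regions, of which 1 was in both lists, 2 in control only and 1 in Taf4-inactivated enteroids only. With 3 control peaks it was at percentile 26.9 of coding genes by number of distal peaks. Junb had 20 regions (14 in both lists, 4 in control only, 2 in Taf4-inactivated enteroids only), Jund 18 (7, 7 and 4), Fos 13 (7, 3 and 3), Fosb 23 (11, 8 and 4), Fosl1 21 (9, 9 and 3), Fosl2 19 (9, 7 and 3) and Atf3 12 (7, 2 and 3). Many regions lay at other genes. Of the Junb regions 10 lay at start sites of other genes, of Fosb 8, of Fosl1 7 and of Jund 5, whereas Fos and Fosl2 had 0, and 28 other genes had a start site peak inside a member window. Of all 130 regions, 61 were intergenic, 33 at start sites of other genes, 19 in coding exons, 12 in introns and 5 in other exonic sequence.

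**Figure D4:**
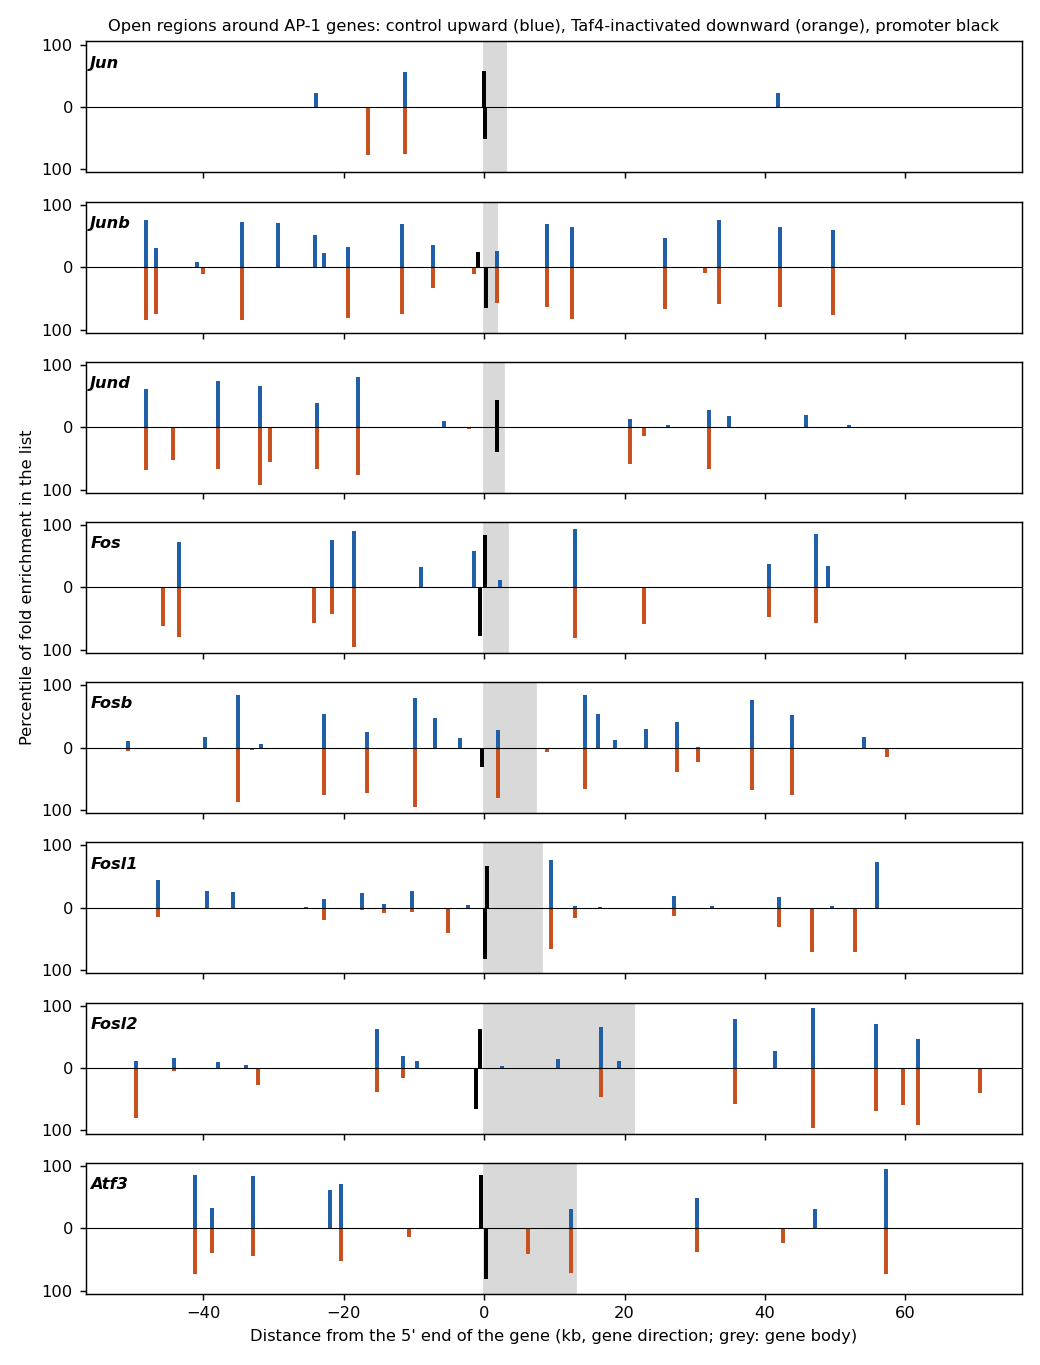
Distal regions around each AP-1 gene at their distance from the 5′ end in kb (negative upstream, grey the gene body), with the percentile of fold upward for control (blue) and downward for Taf4-inactivated enteroids (orange) and the promoter peak in black. Jun has 4 regions, and the highest bars, above percentile 90, all have a counterpart in the other list.

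At or above percentile 90 of a list were 7 distal regions, all intergenic and all in both lists. Fosl2 held the strongest region of the family, 46.8 kb downstream of its 5′ end and beyond the gene (control peak chr5:32485297-32485975), at percentile 95.7 in control and 96.7 after inactivation. Fos had 2 such regions. The upstream one, at −18.6 kb (chr12:86795892-86796635 in control), was at percentiles 90.2 and 95.1, and the downstream one, at 12.9 kb (chr12:86826626-86827389 in control), at 93.7 and 81.4. Fosb had 1 at −9.9 kb (chr7:19904829-19905549 in control), at percentiles 79.5 and 95.6. Jund had 1 at −31.9 kb (chr8:73189540-73189755 in control), at percentiles 66.8 and 92.7, nearer to the start site of Pgpep1, and Atf3 1 at 57.2 kb (chr1:192949715-192950270 in control), at 95.3 and 73.1, nearer to that of Batf3, which encodes another leucine zipper protein. The last was the second Fosl2 region, at 61.8 kb and nearer to Plb1, with 46.1 and 90.9. Among the 7, the Jund, Fosb and second Fosl2 regions passed percentile 90 after inactivation alone, and the Atf3 region and the downstream Fos region in control alone.

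Jun, Junb and Fosl1 had 0 regions at or above percentile 90. Jun had its strongest control region at −11.2 kb, at a start site of the 5S ribosomal RNA copy n-R5s189, at percentile 55.8 in control and 75.8 after inactivation, and its strongest Taf4-inactivated region, at −16.5 kb in an intron of BC042782, at 76.9 with no control partner. Junb had its strongest region in both lists at the start site of 2310036O22Rik, at −48.2 kb, with percentiles 75.8 and 84.7. Among the windows with a stronger region, Jund had its strongest control region at −17.9 kb, at percentile 79.9 in control and 76.1 after inactivation. Fosb had its strongest control region at the start site of Ercc1, a DNA repair endonuclease gene, at −35 kb with 84.7 and 86.3. The strongest control region of Fosl1 was at the start site of Ccdc85b, with 76.5 and 65.5, and its strongest Taf4-inactivated region was at 46.7 kb, with percentile 71.4 and no control partner. The strongest Taf4-inactivated region of Atf3 was at the start site of D730003I15Rik, at −41.2 kb, with percentiles 86.0 in control and 74.1 after inactivation. The highest distal level after inactivation was thus a region absent from the control list for Jun and Fosl1, and a shared region for the other genes.

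Distal peaks that overlapped each other best formed 63 pairs. Of these, 17 stood at least 20 points higher after inactivation and 9 at least 20 points higher in control. Over all 35145 distal pairs the shares were 14.8% and 19.6%. The median difference of the members' pairs was 2.27 points, against −2.08 for all pairs. By fold, the pairs that were higher after inactivation gathered in some windows. Fosb had 5 of 11 pairs, Junb 4 of 13, Jund 4 of 7, Fosl2 2 of 9, Jun its only pair and Atf3 1 of 7. Of the pairs higher in control, Fosl1 had 3 of 9, and Fos (2 of 6), Fosl2 (2 of 9) and Atf3 (2 of 7) the others. The windows of Jun, Junb, Jund and Fosb had 0 pairs that were at least 20 points higher in control, and those of Fos and Fosl1 had 0 that were at least 20 points higher after inactivation. All 17 and all 9 kept their sign when ranked by −log10 p. By that rank, though, 6 pairs were at least 20 points higher after inactivation and 13 in control. The 6 were pairs of Fosl2 (60.3), Fosb (45.6 and 24.8), Atf3 (40.1), Junb (26.1) and Jun (24.9). No Jund pair was among them, its highest difference by −log10 p being 17.4 points. The balance between the directions in the members' pairs therefore depended on the ranking value. The shares of all distal pairs by −log10 p were not determined.

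**Figure D5:**
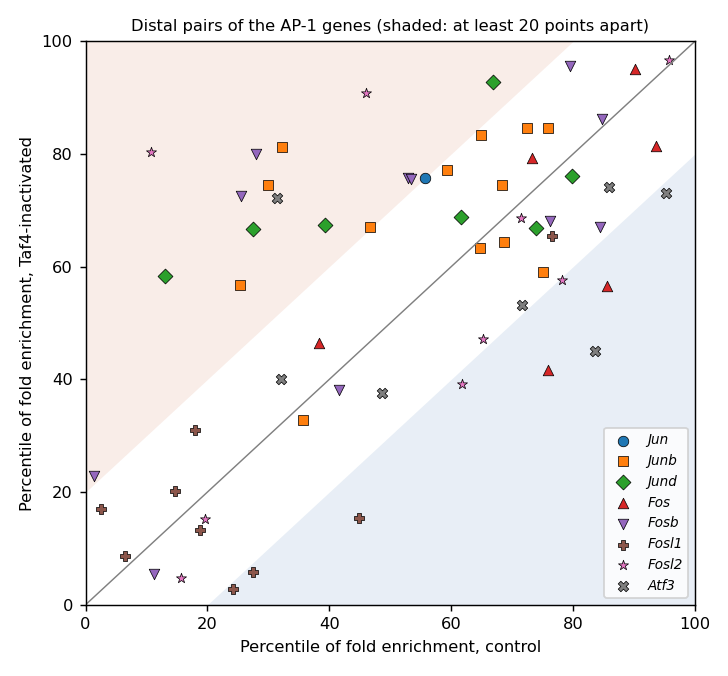
Percentile of fold enrichment of the 63 distal pairs of the AP-1 genes in control (x axis) and in Taf4-inactivated enteroids (y axis), with 1 marker shape per gene. The orange area holds the 17 pairs at least 20 points higher after inactivation and the blue area the 9 that were higher in control.

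Past 40 points there were 8 pairs, all higher after inactivation by fold. By −log10 p, 4 of them were at least 20 points higher, and the others were the pair in Fosb (16.9), the Junb pair at Asna1 (16.8), the second Fosl2 pair (15.0) and the Jund pair (3.78). In 4 of the 8 each peak overlapped at least 50% of the other, which was not so for both Fosl2 pairs, the pair in Fosb and the Atf3 pair. The widest gap was at −49.6 kb of Fosl2 (control peak chr5:32389090-32389294), from percentile 10.7 in control to 80.4, with 142 bp shared. The pair in a coding exon of Fosb itself, at 2 kb (chr7:19892497-19894243), was at 28.0 and 80.02, with a control peak of 1747 bp and a Taf4-inactivated peak of 759 bp. It was the nearest peak to the Fosb promoter on the side of the gene body. A second Fosb pair, at −16.7 kb (chr7:19911288-19912882), was at 25.6 and 72.6. Of the 2 Junb pairs, the one in a coding exon of Hook2, at −19.4 kb, was at 32.3 and 81.2, and the one at the start site of Asna1, at −46.7 kb, at 29.99 and 74.4. The pair at 20.8 kb of Jund was at 13.0 and 58.3, with percentiles by −log10 p of 72.9 and 76.7. At 61.8 kb of Fosl2 the pair was at 46.1 and 90.9, as given above. The Atf3 pair, at 12.4 kb in exonic sequence of the gene, was at 31.4 and 72.2, but its peaks shared only 89 bp. In the other direction the widest gap was at −32.9 kb of Atf3 (chr1:193039923-193040246), with 83.6 in control and 45.1 after inactivation, a difference of −38.5 points, followed by the Fos pair at −21.6 kb with 76.0 and 41.7.

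The AP-1 sequence TGACTCA, on either strand, was in 28 of the 130 distal regions (21.5%, 14.8 to 29.6). It was in 16.2% of all regions distal to coding genes. The members' regions were somewhat wider, with a median of 694 against 588 bp, and the same letters in reversed order, ACTCAGT, were also found more often, in 15.4% against 11.8%. In the 400 bp around the centre of each region, a window of equal length, the AP-1 sequence was in 13.1% against 9.95%. For regions narrower than 400 bp the window reached past the region, and some matches lay outside it, as at a Fosl1 region of 216 bp. By list, it was in 20 of 65 regions of both lists (30.8%, against 22.5% over all coding genes), in 3 of 42 control-only regions (7.14%, against 10.95%) and in 5 of 23 Taf4-inactivated-only regions (21.7%, against 15.2%). The intervals of these shares, 19.9 to 43.4, 1.498 to 19.5 and 7.46 to 43.7, all held the value of all coding genes. CArG boxes were in 10 of the 130 regions (7.69%, 3.75 to 13.7), against 2.83%. For these boxes no reversed letters or central window were counted, and the part of width was not tested. Regions at start sites of other genes, in the windows of Jun, Junb, Jund and Fosl1, were among the 10, that of Fosl1 with a width of 3806 bp. Another, just upstream of Junb, held the CArG box printed above for the Junb promoter. By gene, Fosb had 7 regions with an AP-1 sequence, Atf3 and Fosl2 5 each, Fosl1 4, Junb and Jund 3 each, Fos 1 and Jun 0.

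The following sequences show the distal sites in regions described above and the densest group of AP-1 sequences, with the AP-1 sequence or CArG box in capitals, in the direction of the gene, none of them in an annotated gene.
Junb, chr8:87509526-87509686, minus strand, about 7 kb upstream, 3 AP-1 sequences: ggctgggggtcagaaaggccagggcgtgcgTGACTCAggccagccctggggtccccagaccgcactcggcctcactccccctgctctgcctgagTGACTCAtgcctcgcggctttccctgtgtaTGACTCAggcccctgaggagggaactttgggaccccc
Junb, chr8:87500493-87500562, minus strand, CArG box 2085 bp downstream of the 5′ end and beyond the gene: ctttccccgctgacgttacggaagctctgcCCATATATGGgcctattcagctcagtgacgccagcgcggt
Fos, chr12:86827034-86827103, plus strand, CArG box 12224 bp downstream of the 5′ end and beyond the gene: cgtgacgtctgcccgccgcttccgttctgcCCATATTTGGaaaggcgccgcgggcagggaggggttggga
Fos, chr12:86837434-86837500, plus strand, AP-1 sequence 22624 bp downstream of the 5′ end: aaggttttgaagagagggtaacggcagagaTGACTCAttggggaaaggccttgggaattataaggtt
Fosb, chr7:19912667-19912733, minus strand, AP-1 sequence 17309 bp upstream: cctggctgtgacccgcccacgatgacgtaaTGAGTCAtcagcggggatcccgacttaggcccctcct
Atf3, chr1:193040154-193040220, minus strand, AP-1 sequence 32971 bp upstream: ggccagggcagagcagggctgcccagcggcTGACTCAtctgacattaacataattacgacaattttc
The region with 3 AP-1 sequences upstream of Junb was in both lists with little difference, at percentile 35.6 in control and 32.7 after inactivation. The Junb pair over the downstream CArG box was at 25.4 and 56.8, a gap of 31.4 points by fold and 5.61 by −log10 p, with a control peak of 1425 bp and a Taf4-inactivated peak of 681 bp. The Fos CArG box lay in the strong downstream region at percentiles 93.7 and 81.4. The Fos region with an AP-1 sequence was in the Taf4-inactivated list only, at percentile 58.4. The Fosb and Atf3 sequences lay in regions that differed in opposite directions, the Fosb pair 47.0 points higher after inactivation and the Atf3 pair with a difference of −38.5 points. Regions with the AP-1 sequence were thus found among higher, lower and similar pairs, and a match says nothing of binding.

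Genes that act with AP-1 were described by their promoter peaks in the same way. Of 15 related leucine zipper genes, whose proteins dimerise with or bind sites like those of AP-1, 14 had a promoter peak in both lists (Batf had none in either). In the list, 1 stood at least 20 points higher after inactivation, Maff, a small Maf protein, at percentiles 51.5 and 74.0. Maf, a large Maf protein, had a difference of −25.04 points, at 85.5 and 60.5. Of 22 kinases and factors upstream of AP-1, 21 had a promoter peak in both lists (Mapk10, a kinase of the Jun N-terminal kinase group, had none), and 0 differed by 20 points in either direction. Srf was at 69.0 and 65.4, and Mapk8, another kinase of that group, at 93.2 and 90.3.

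Of 18 other immediate early genes, 17 had a promoter peak in both lists, and Zfp36, which encodes a protein that destabilises mRNA, had 1 after inactivation alone, at percentile 0.332. Cyr61, a matricellular protein gene, stood at least 20 points higher after inactivation, at 47.4 and 69.5, whereas its relative Ctgf was lower, at 81.1 and 56.6. Egr1, which like Fos is driven by SRF, was at 67.4 and 64.1. Of 10 classic AP-1 target genes, 6 had a promoter peak in both lists, and 4, the matrix metalloproteinase genes Mmp3, Mmp10 and Mmp13 and their inhibitor Timp1, had one in neither. Vegfa, an angiogenic growth factor gene, stood at least 20 points lower after inactivation, at 41.0 and 9.31. The median differences of the lists were −6.79 for the leucine zipper genes, −3.70 for the upstream genes, 0.861 for the immediate early genes and −3.88 for the targets, against −2.77 for all coding genes and −4.33 for the 7 AP-1 genes. By medians and counts, none of these lists stood far from all promoters, for which 7.84% were at least 20 points higher after inactivation and 12.3% in control.

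The coding genes most like these AP-1 genes in promoter percentile and in the percentile of their number of distal peaks, over 4 values from the 2 libraries, were Mafg, Nphs1 and Ninj1, at distances of 5.001, 5.12 and 5.63 points from the medians of the 7 members with a promoter peak in both lists. Mafg, a small Maf protein gene, had promoter percentiles of 60.5 and 67.3. Nphs1, which encodes nephrin, had 64.5 and 64.5, and Ninj1, which encodes a membrane protein, 63.0 and 63.4.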

How the data were processed

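The peak lists of both ATAC-seq libraries, 1 control and 1 Taf4-inactivated, were grouped by the labels. The authors made the libraries from 20000 cells each, mapped reads to mm9 with Bowtie 1.0.0, with uniquely mapping reads kept, and ran MACS2 2.1.1 in broad mode on each library by itself, without a model and with a shift of −100 and an extension of 200 bp (versions from the submitters' processing notes, with bcl2fastq 2.17.1.14). The treatment of duplicate and mitochondrial reads is not given in the sources used here. The deposited fold is a ratio over the background of the same library. The deposited −log10 p and −log10 q are averages over a peak, with a lowest −log10 q of 1.01 in control and 1.00 in the other list, and the deposited score is 10 times the −log10 q. As depth is unknown, no interval for single peaks was given.

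Positions were converted to 1-based coordinates. Genes and sequences came from GENCODE and the NCBIM37 (mm9) genome, in which all peak ends lay. Distal peaks overlapping by at least 1 bp were merged. Pairs were peaks of the 2 lists that overlapped each other best. Differences of at least 20 percentile points were counted, and the named regions were the strongest of each window, those at or above percentile 90 and pairs past 40 points. Symbols with more than 1 gene entry were represented by the longest. Regions chosen for printed sequences, the widest gaps in the control direction, Srf, Mapk8 and Egr1 were picked after their values were seen. 1 marker gene is not reported here. The members, lists and rules were chosen with earlier results of these data known. Alternatives changed the start site distance, the window, the overlap, the q threshold, the ranking value, the list size and the motif window. Overlap, merging and pairing were tested on simulated data, where all 4 steps gave the counts of bedtools 2.31.1. Python 3.11.15, numpy 2.4.6, pandas 2.3.3, scipy 1.17.1 and matplotlib 3.10.9 were used.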

Additional observations from a re-analysis of the deposited data

How the results depend on the processing

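No paired analysis was possible because each genotype had 1 library and no result came from a test. Of 93 alternative values, 67 stayed close to the reported one and 26 moved, and the cause of the moves was not tested unless given. Some of the 67 could not move. No member had more than 1 promoter peak in a list, so a width-weighted mean over promoter peaks returned the reported value. A fall from 7 to 5 genes with a promoter peak in control, at −log10 q of at least 5, also counted as close. Under some, given below with both counts, the order of the directions turned round. Windows of 25 kb, which hold fewer peaks, gave 23 control-only and 9 Taf4-inactivated-only distal regions, and windows of 100 kb gave 76 and 40. Requiring 50% overlap of both peaks left 32.3% of regions in both lists, with 8 pairs at least 20 points higher after inactivation and 4 in control. With −log10 q of at least 2, 60.2% were in both lists, 12 in control only and 21 in Taf4-inactivated enteroids only, and with the top 40000 peaks 5 and 25 were in 1 list only, against 42 and 23 as reported. Ranked by −log10 p, 6 pairs were higher after inactivation and 13 in control, against 17 and 9 by fold. Without start sites of other genes, a choice made after seeing the data, 12 pairs were higher after inactivation and 9 in control. For the alternatives in this paragraph the shares over all coding genes were not determined, so the counts describe the members only.

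Ranked by −log10 p, the leucine zipper and immediate early lists had 0 genes higher after inactivation, the immediate early list 2 higher in control and the target list 2. With −log10 q of at least 2, the leucine zipper, upstream and immediate early lists each had 3 genes higher after inactivation and the target list 1. Higher in control were then 1 upstream, 2 immediate early and 0 target genes. The shares of all coding promoters by −log10 p or with this q were not determined. Within the 400 bp around the centre, which can reach past a narrow region, the AP-1 sequence was found for 13.1% of regions. The Junb promoter difference was 9.53 points by −log10 p and 25.1 within start site peaks. Read depth was not used here, and no difference has a replicate check.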

Other observations

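With a limit of 2 kb in place of 1 kb, all 8 AP-1 genes had a promoter peak in both lists. With −log10 q of at least 5, 5 of the 8 had one in control and 7 in Taf4-inactivated enteroids.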
